A study of Mus musculus with 4 samples.

Results

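The inhibitors of cyclin-dependent kinases (CDKs) of the INK4 and CIP/KIP families, the D-type cyclins and the retinoblastoma gene Rb1 were followed in cultured mouse dermal fibroblasts with and without ADAM9, a membrane-anchored protease that cleaves proteins at the cell surface. Members were chosen by name, with earlier results of these data known, so shares of members set beside those of all genes are descriptive only. A probe set, the group of short probes that gives 1 value per array, was included if the platform annotation tied it to exactly 1 of the 10 genes Cdkn2a, Cdkn2b, Cdkn2c, Cdkn2d, Cdkn1a, Cdkn1b, Ccnd1, Ccnd2, Ccnd3 and Rb1. Of the 45101 probe sets on the array, 23 met this rule, and all 10 genes, of 18193 named on the array, had at least 1. The knockout group (adam9 -/-) and the wild-type group (adam9 +/+) each held 2 isolations of primary fibroblasts from skin at postnatal day 1, with 1 array per isolation. From each, 1000000 cells were grown for 48 hours on square plates of 10 cm without treatment before total RNA was taken. The labels give no strain, no sex, no description of the deleted allele, and no number of animals behind an isolation. P-values therefore measure the spread between these isolations.

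D-type cyclins bind CDK4 and CDK6 when growth factors are present, and the active kinases phosphorylate the retinoblastoma protein, which then releases E2F transcription factors to switch on the genes of DNA replication. INK4 proteins block CDK4 and CDK6 by binding the kinase itself, and CIP/KIP proteins bind cyclin and CDK together and chiefly restrain CDK2. Cdkn2a encodes both p16INK4a and, from another first exon and reading frame, p19Arf, a protein that keeps p53 stable. In cultured mouse fibroblasts both products are known to build up with time in culture, and Cdkn1a, which encodes p21, is a classic target of p53.

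The promoters below are shown because Cdkn2a and Cdkn2b, which lie side by side and stood lower in the knockout, Cdkn1a, which also stood lower, and Cdkn2c and Cdkn2d, which stood higher, are the members that the results turn on. RefSeq promoter sequences (build GRCm38.p6) matched 7 of the 10 members, with 11 start sites, and the 250 bases before a start site are printed 5′ to 3′ on the gene's strand for 6 of them. Capitals mark an E2F-type word, searched on both strands as TTTCCCGC, TTTCGCGC, TTTGCCGC or TTTGGCGC, or the spaced repeat ACATGTNNNNACATGT (any base at N), which resembles a paired p53 half-site and was added to the search after the Cdkn1a sequence had been read.
Cdkn2a, far start, that of Arf (chr4:89294620-89294869, minus strand): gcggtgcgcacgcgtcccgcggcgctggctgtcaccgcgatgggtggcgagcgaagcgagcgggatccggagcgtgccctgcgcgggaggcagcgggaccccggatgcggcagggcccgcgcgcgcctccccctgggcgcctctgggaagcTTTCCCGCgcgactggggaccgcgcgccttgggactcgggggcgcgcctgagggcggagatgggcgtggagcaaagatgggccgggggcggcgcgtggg
Cdkn2a, near start, that of Ink4a (chr4:89282193-89282442, minus strand): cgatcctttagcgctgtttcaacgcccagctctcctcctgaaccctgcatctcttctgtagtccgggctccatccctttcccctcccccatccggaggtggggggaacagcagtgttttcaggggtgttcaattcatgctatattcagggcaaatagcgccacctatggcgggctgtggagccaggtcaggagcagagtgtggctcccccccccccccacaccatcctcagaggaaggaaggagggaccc
Cdkn2b (chr4:89311033-89311282, minus strand): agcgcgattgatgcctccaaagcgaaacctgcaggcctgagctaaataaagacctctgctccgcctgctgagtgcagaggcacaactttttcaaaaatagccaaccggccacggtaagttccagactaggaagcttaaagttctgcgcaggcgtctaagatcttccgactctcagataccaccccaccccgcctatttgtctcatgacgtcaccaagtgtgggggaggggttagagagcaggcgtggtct
Cdkn2c, far start (chr4:109666757-109667006, minus strand): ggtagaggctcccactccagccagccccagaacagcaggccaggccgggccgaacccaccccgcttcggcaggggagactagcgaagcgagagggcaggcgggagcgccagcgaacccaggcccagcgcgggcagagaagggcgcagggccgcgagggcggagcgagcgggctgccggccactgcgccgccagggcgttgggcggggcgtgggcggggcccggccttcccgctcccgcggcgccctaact
Cdkn2d (chr9:21291210-21291459, minus strand): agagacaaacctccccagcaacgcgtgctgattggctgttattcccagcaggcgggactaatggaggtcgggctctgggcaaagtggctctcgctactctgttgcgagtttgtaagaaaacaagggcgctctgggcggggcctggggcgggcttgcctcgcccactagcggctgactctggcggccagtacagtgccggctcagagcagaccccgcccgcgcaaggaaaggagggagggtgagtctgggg
Cdkn1a, far start (chr17:29090729-29090978, plus strand): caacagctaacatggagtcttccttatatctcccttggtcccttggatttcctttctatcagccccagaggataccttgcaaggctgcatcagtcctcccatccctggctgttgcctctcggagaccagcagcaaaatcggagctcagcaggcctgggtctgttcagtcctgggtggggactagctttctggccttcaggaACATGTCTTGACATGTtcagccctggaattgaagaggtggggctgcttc
The assignment of the Cdkn2a starts to Arf and Ink4a is from the known order of their first exons.

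An E2F-type word was found at 1 of the members' 11 start sites, beginning 99 bases before the far start of Cdkn2a. Over all 32851 promoter windows of this length, 1.86% held such a word. The spaced repeat began 49 bases before the far start of Cdkn1a, and 4 of all the windows held it, that of Cdkn1a included. As the repeat was added after the Cdkn1a sequence had been read, its presence there was fixed in advance. The promoters also differed in CpG, a C followed by a G, where DNA methylation mostly acts. The far Cdkn2a window had 40 CpGs and the near one 7, against 12 for Cdkn2b, 29 for the far start of Cdkn2c, 16 for Cdkn2d, 2 for the far start of Cdkn1a and a median of 6 over all windows. The near starts of Cdkn2c and Cdkn1a, which are not printed, had 6 and 19. These letters describe the windows, and no binding or methylation was measured.

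All values are the deposited values, taken as log2, so that a difference of 1 is a doubling. The genotypes were compared with limma over the 23595 probe sets that named 1 gene and whose mean over the 4 arrays was above 4.17, the 40th percentile. A probe set was called at a Benjamini-Hochberg adjusted p under 0.05. Adam9 stood at 8.33 and 8.55 in the knockout and at 11.58 and 11.70 in the wild type and fell by 3.196 (SE 0.151, limma adjusted p = 0.0275); no label places this probe set inside or outside the deleted part. With any 1 array left out Adam9 was not called (limma adjusted p 0.131 to 0.293). In all, 10 probe sets were called, or 0.0424%, and 0 with any 1 array left out. The arrays also differed in sex-linked RNA exactly as in genotype: Xist was 10.38 and 10.40 in the knockout and 4.29 and 4.32 in the wild type, and the Y-linked Eif2s3y was 2.75 and 2.67 against 9.19 and 9.31. Counted by gene, 9 genes were called, and 4 of them were the tested sex-linked genes, 1 higher and 3 lower in the knockout. Genotype and the difference in sex-linked RNA cannot be told apart. All 12 fibroblast markers were above 10.1 in every array, with Col3a1, a fibrillar collagen, at 13.82 to 14.13. Wild-type isolation 2 was the lowest on this list, with a summed log2 level of 149 against 156 to 157 in the others. Lum, a collagen-binding proteoglycan named after its value was seen, was 10.13 in that array and 12.38 to 12.81 elsewhere. All 14 tested macrophage and leukocyte markers had a lower mean in the knockout, 10 of them without overlap between the genotypes, against 22.0% of all genes tested. Wild-type isolation 1 carried high levels of these genes. Over 17 such markers, 3 of them below the filter, the summed log2 level was 138 there, 82.2 in the other wild-type array and 76.6 and 76.1 in the knockout, with Lyz2, the macrophage lysozyme, at 12.56 there and 6.78 to 7.59 elsewhere. The highest markers of the other cell types were Krt10 for keratinocytes (6.49 to 7.17), Tek for endothelium (5.13 to 6.37), Pmel for melanocytes (5.29 to 5.41), Mbp for Schwann cells (6.57 to 6.81), Acta1 for skeletal muscle, Lpl for adipocytes and Myh11 for smooth muscle. Acta1 read 9.62 and 9.06 in the knockout and 9.97 and 11.40 in the wild type. Lpl read 13.04 and 12.04 in the knockout and 11.55 and 10.75 in the wild type. Of 7 muscle genes measured, 3 were tested and stood lower in the knockout without overlap, against 22.0% of all genes tested. Of 4 adipocyte genes measured, 2 were tested and stood higher without overlap, against 23.0%. The rest of both lists lay below the filter. Myh11 was low in the knockout (6.55 and 5.48, against 8.71 and 9.57). All 7 pericyte and smooth muscle markers separated by genotype without overlap. In the knockout 5 were lower, against 22.0% of all genes tested, and 2 higher, against 23.0%. Their differences ran from -3.12 to 2.51. Shifts in opposite directions cancel in the summed log2 level, which was 48.9 and 41.8 in the knockout and 48.3 and 45.5 in the wild type. The part of other cell types in the member values was not tested. In such bulk samples fewer cells of a type and less RNA per cell cannot be told apart.

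None of the 21 member probe sets that passed the filter was called (limma, adjusted p under 0.05), while 7 had an unadjusted p under 0.05, against 11.1% of all probe sets. Of these, 5 stood lower in the knockout (background 5.46%) and 2 higher (background 5.61%). Without overlap between the genotypes, 11 of the 21 stood lower in the knockout, against 22.8% of all probe sets, and 3 stood higher, against 21.8%. Of the 11, 6 were probe sets of Ccnd2 and 2 of Cdkn1a, so these counts are not of independent items. Counted by gene, each through its probe set with the highest mean, Cdkn1a, Cdkn2a, Cdkn2b, Ccnd2 and Rb1 stood lower without overlap, 5 of 10 genes against 22.0% of the 13271 genes tested. Cdkn2c and Cdkn2d stood higher without overlap, 2 of 10 against 23.0%. The median difference over the 10 genes was -0.10, and over all genes tested it was 0.0027.

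**Figure D1:**
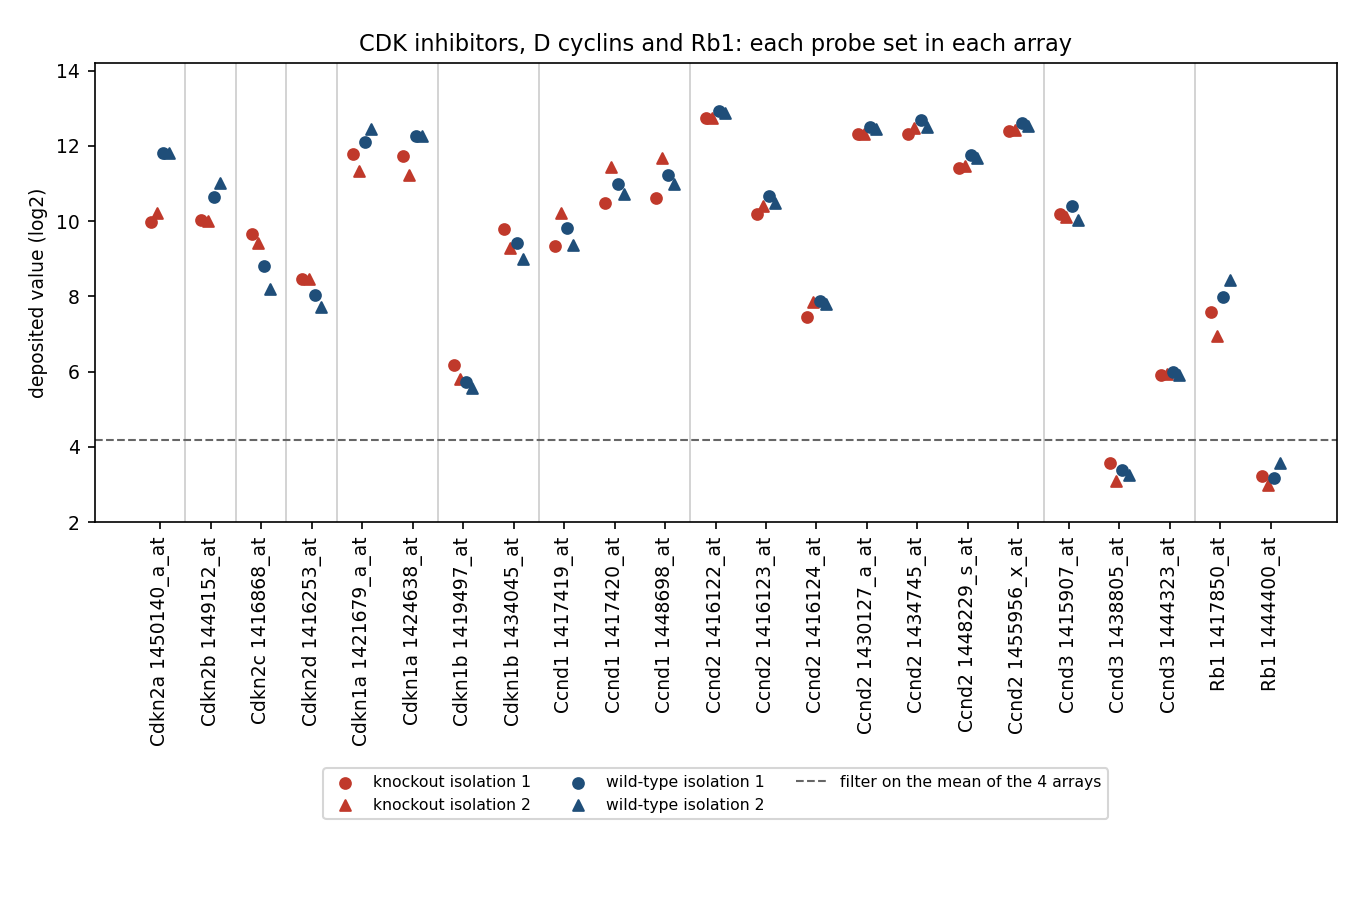
Deposited log2 value (vertical axis) of each of the 23 probe sets in each of the 4 arrays; red is knockout, blue is wild type, circles are isolation 1 and triangles isolation 2, and the dashed line is the filter level of 4.17. Cdkn2a and Cdkn2b stand lower in both knockout arrays, Cdkn2c and Cdkn2d stand higher in both, and 1 probe set each of Ccnd3 and Rb1 lies below the filter.

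Cdkn2a had the largest difference of any member. Its 1 probe set (Entrez 12578, 1450140_a_at) read 9.99 in the first knockout isolation, 10.20 in the second and 11.80 in both of the wild type. The wild-type arrays were nearly equal, and both knockout arrays lay well below them, with a gap of 1.59 between the nearest arrays of the 2 genotypes. A gap at least that wide on the lower side was seen for 30 of the 23595 probe sets, Cdkn2a included. Means were 10.09 ± 0.154 (SD, n = 2) in the knockout and 11.80 ± 0.0045 (SD, n = 2) in the wild type. The log2 difference was -1.70 (SE 0.145, 95% interval -2.09 to -1.32), which is 3.26-fold. Cdkn2a ranked 35th of all probe sets by p (unadjusted p = 1.32e-04, limma adjusted p = 0.0841) and so missed the threshold; over the alternative settings the adjusted p ran from 0.0703 to 0.451. No source used here says whether the probe set reads the p16INK4a transcript, the p19Arf transcript or both, so these cannot be told apart. The difference was -1.70 without wild-type isolation 1, the array with the leukocyte markers, and -1.71 without wild-type isolation 2, the array with the lowest fibroblast markers. As the wild-type values were nearly equal, leaving out either could hardly change the difference. The part of other cell types in it was not tested.

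Cdkn2b, which encodes the neighbouring INK4 inhibitor p15, a known target of TGF-beta, was lower by a smaller step. Its probe set (Entrez 12579, 1449152_at) read 10.03 and 10.00 in the knockout and 10.63 and 11.00 in the wild type. Here the knockout arrays were the tight pair and wild-type isolation 2 stood highest. The difference was -0.80 (SE 0.176, 95% interval -1.26 to -0.33, limma adjusted p = 0.293), or 1.74-fold.

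The genes around Cdkn2a and Cdkn2b in the RefSeq gene order gave no comparable difference. These neighbours were looked at after the member values were known. Of the 8 protein-coding genes on each side, 12 were measured and 4 passed the filter, and their differences ran from -0.17 to 0.17. Mtap, the gene next to Cdkn2a and an enzyme of methionine salvage, read 9.93 and 10.69 in the knockout and 9.96 and 10.33 in the wild type (limma adjusted p = 0.862). Its genotypes overlapped, and isolation 2 was the higher in each. On the other side Dmrta1, next to Cdkn2b, read 2.32 to 2.60 in all arrays, below the filter. The measured interferon-alpha genes beyond Mtap were below it too.

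**Figure D2:**
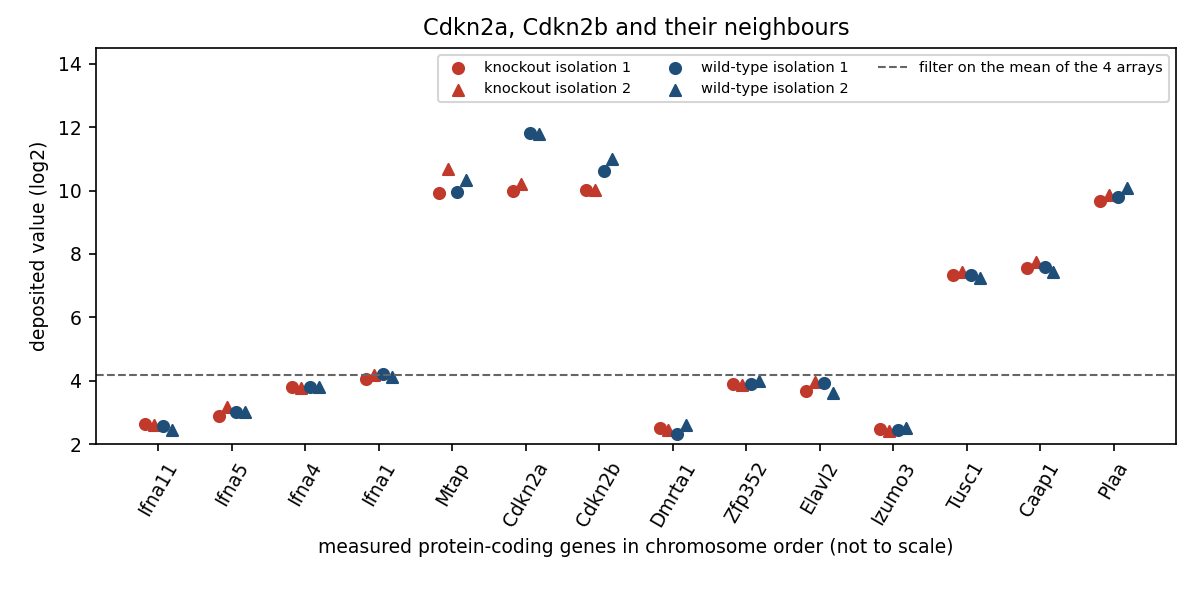
Deposited log2 values in the 4 arrays (colours and symbols: red knockout, blue wild type, circles isolation 1, triangles isolation 2) for the measured protein-coding genes around Cdkn2a and Cdkn2b, in chromosome order and not to scale. Cdkn2a and Cdkn2b separate by genotype, Mtap, Tusc1, Caap1 and Plaa lie above the dashed filter line with differences of -0.17 to 0.17, and the means of the rest lie below the line, though Ifna1 reaches 4.22 in wild-type isolation 1.

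The other INK4 genes stood on the opposite side. Cdkn2c, which encodes p18, an inhibitor whose gene is a known E2F target, read 9.65 and 9.41 in the knockout and 8.80 and 8.18 in the wild type (Entrez 12580, 1416868_at). Both knockout arrays lay above both wild-type arrays by at least 0.61. The difference was 1.04 (SE 0.252, 95% interval 0.38 to 1.71, limma adjusted p = 0.318), a 2.06-fold higher value, and leaving out either wild-type array gave 0.73 (isolation 2 out) or 1.35 (isolation 1 out). Cdkn2d, which encodes p19INK4d (a protein distinct from p19Arf), read 8.45 and 8.47 in the knockout and 8.03 and 7.73 in the wild type (Entrez 12581, 1416253_at). Its genotypes did not overlap either, and the knockout pair was the tighter. The difference was 0.58 (SE 0.161, 95% interval 0.16 to 1.00, limma adjusted p = 0.356), or 1.49-fold. So within 1 family of inhibitors, the pair at the shared locus was lower and the other two were higher, with no member past the test.

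Of the CIP/KIP inhibitors, Cdkn1a (p21) stood lower and Cdkn1b (p27) slightly higher. The Cdkn1a probe set 1424638_at (Entrez 12575) read 11.72 and 11.21 in the knockout and 12.26 and 12.25 in the wild type. Its other probe set, 1421679_a_at, read 11.78 and 11.34 against 12.09 and 12.45. In both, knockout isolation 2 was lowest and no wild-type array reached down to a knockout array. The differences were -0.79 (SE 0.210, limma adjusted p = 0.352) and -0.71 (SE 0.226, limma adjusted p = 0.398), or 1.72-fold and 1.64-fold, with 95% intervals of -1.34 to -0.23 and -1.31 to -0.12. Leaving out 1 array in turn gave -1.04 to -0.53 for the first and -0.93 to -0.49 for the second.

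Cdkn1b encodes p27, the inhibitor that holds cells in quiescence and is itself controlled mainly by protein breakdown. Its brighter probe set 1434045_at (Entrez 12576) read 9.78 and 9.28 in the knockout and 9.41 and 8.999 in the wild type. These values overlapped, with isolation 1 higher in each genotype. The other, 1419497_at, read 6.19 and 5.81 against 5.71 and 5.56 and did not overlap, with a gap of 0.093. The differences were 0.33 (SE 0.249, 95% interval -0.33 to 0.98) and 0.36 (SE 0.185, 95% interval -0.13 to 0.85), with limma adjusted p of 0.655 and 0.540, and the first was 0.073 without knockout isolation 1.

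The D cyclins, the positive partners of CDK4 and CDK6, showed little difference between the genotypes. Ccnd1, the cyclin most directly tied to growth factor signalling in fibroblasts, had 3 probe sets (Entrez 12443). The one with the highest mean, 1448698_at, read 10.61 and 11.67 in the knockout and 11.21 and 10.99 in the wild type. Knockout isolation 1 was thus the lowest and knockout isolation 2 the highest array. Probe set 1417420_at read 10.49 and 11.43 against 10.98 and 10.72. Probe set 1417419_at read 9.32 and 10.20 against 9.82 and 9.36. All 3 probe sets placed the knockout arrays at the ends of the range. Their genotype differences were 0.04, 0.11 and 0.18 (limma adjusted p = 0.978, 0.929 and 0.878), with 95% intervals that together spanned -0.96 to 1.10. Without knockout isolation 1 the first was 0.57, and without knockout isolation 2 it was -0.49, so the sign rests on which isolation is counted.

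Ccnd2 was bright and slightly lower in the knockout in each of its 7 probe sets (Entrez 12444). Probe set 1416122_at, with the highest mean, read 12.73 and 12.75 in the knockout and 12.92 and 12.86 in the wild type. The genotypes were apart by a gap of 0.11, and the arrays within each were close. Probe set 1448229_s_at, with the largest difference, read 11.40 and 11.46 against 11.77 and 11.68. The differences of the 7 ran from -0.29 to -0.15 and 6 of them had no overlap, and the limma adjusted p ran from 0.495 to 0.724. Only 1416124_at, the dimmest, overlapped (7.44 and 7.86 against 7.88 and 7.80). The others were 1416123_at (10.18 and 10.39 against 10.67 and 10.48), 1430127_a_at (12.32 and 12.32 against 12.49 and 12.45), 1434745_at (12.33 and 12.46 against 12.69 and 12.51) and 1455956_x_at (12.39 and 12.43 against 12.61 and 12.53). The suffixes _s_at and _x_at mark probes that may also match other transcripts. These 7 read 1 gene, so they are repeated measures of it and not replicates of the genotype.

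Ccnd3, the third D cyclin, was nearly level. Probe set 1415907_at (Entrez 12445) read 10.20 and 10.12 in the knockout and 10.39 and 10.02 in the wild type. The wild-type arrays enclosed the knockout arrays. Probe set 1444323_at read 5.92 and 5.94 against 5.99 and 5.91, and the differences were -0.04 and -0.02 with 95% intervals of -0.51 to 0.42 and -0.36 to 0.32 (limma adjusted p = 0.946 and 0.960). The dim 1438805_at read 3.57 and 3.10 against 3.39 and 3.25 and was below the filter.

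Rb1, the target of the D cyclin kinases, stood lower in the knockout. Probe set 1417850_at (Entrez 19645) read 7.59 and 6.95 in the knockout and 7.98 and 8.44 in the wild type. No array of one genotype reached the other, but each genotype's own arrays were also apart. The difference was -0.93 (SE 0.288, 95% interval -1.69 to -0.17, limma adjusted p = 0.393), or 1.91-fold, and leaving out either knockout array gave -0.62 (isolation 2 out) or -1.25 (isolation 1 out). The second probe set, 1444400_at, read 3.23 and 2.99 against 3.17 and 3.56. It lay below the filter and its genotypes overlapped. With the mean over both probe sets, Rb1 differed by -0.59.

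**Figure D3:**
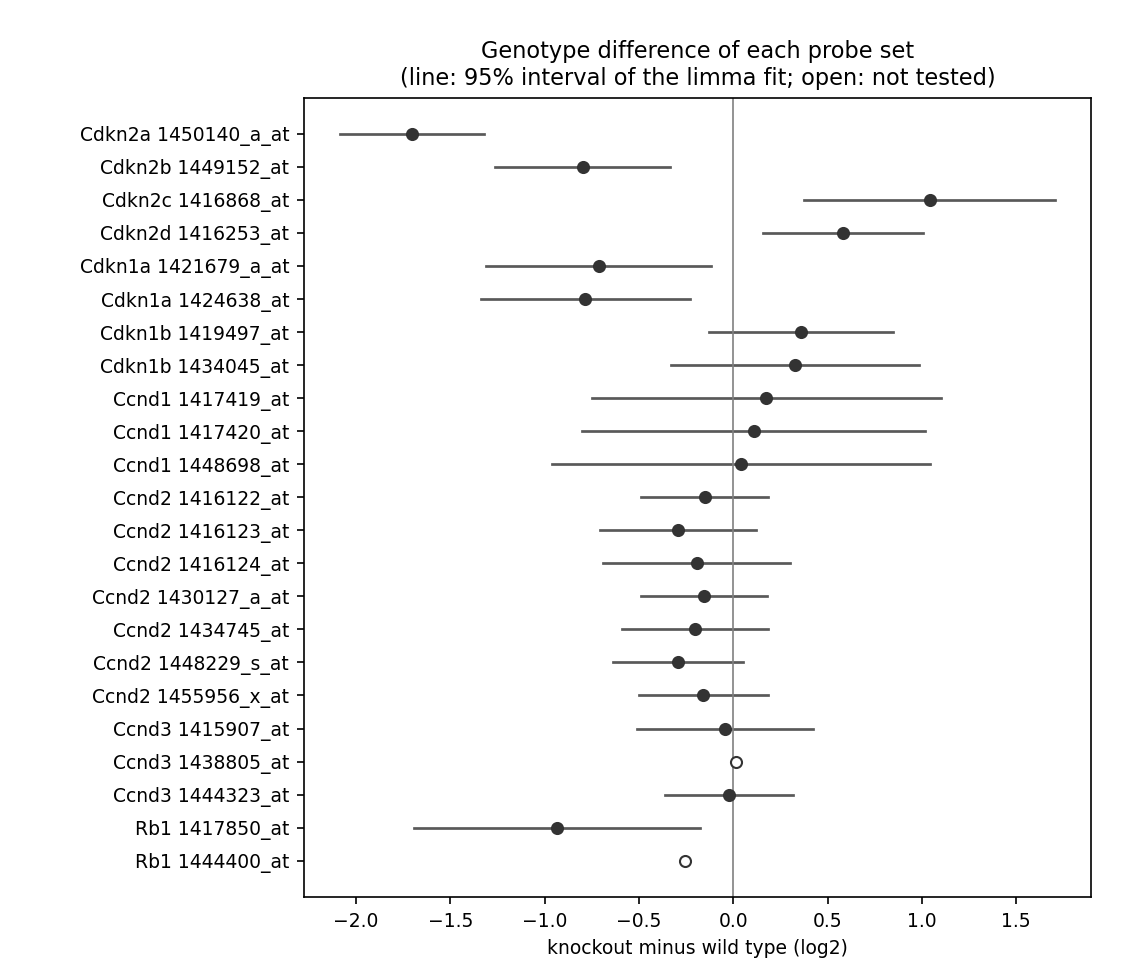
Knockout minus wild type on the log2 scale (horizontal axis) for each probe set, with the 95% interval of the limma fit as a line; open circles are the 2 probe sets below the filter, which were not tested. Intervals of Cdkn2a, Cdkn2b, Cdkn2c, Cdkn2d, Cdkn1a and Rb1 do not include 0 before adjustment for many tests, and those of the D cyclins and Cdkn1b do.

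In every probe set of Ccnd1 and Cdkn1b, the isolations of the knockout differed from each other by more than the genotypes did. Among the other tested probe sets this held for Ccnd2 1416124_at (isolation 2 minus 1, 0.42) and Ccnd3 1415907_at (-0.081). Ccnd1 was higher in knockout isolation 2 than in knockout isolation 1 by 0.88 to 1.06 over its 3 probe sets, a step at least as large as that of 95.1% to 97.1% of all tested probe sets between those arrays. Cdkn1b was lower in knockout isolation 2 by 0.38 and 0.51, Cdkn1a by 0.44 and 0.51, and Rb1 by 0.64. Between the wild-type isolations, Cdkn2c differed by 0.61 and Rb1 by 0.46, in each case less than between the genotypes. In other tested probe sets the wild-type step, isolation 2 minus 1, was larger in size than the genotype difference. These were all 3 of Ccnd1 (-0.46 to -0.23), Cdkn1b 1434045_at (-0.41), and Ccnd3 1415907_at (-0.37) and 1444323_at (-0.078). For Cdkn2a the isolations differed by 0.22 in the knockout and by 0.0063 in the wild type, both far below the genotype difference of 1.70.

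**Figure D4:**
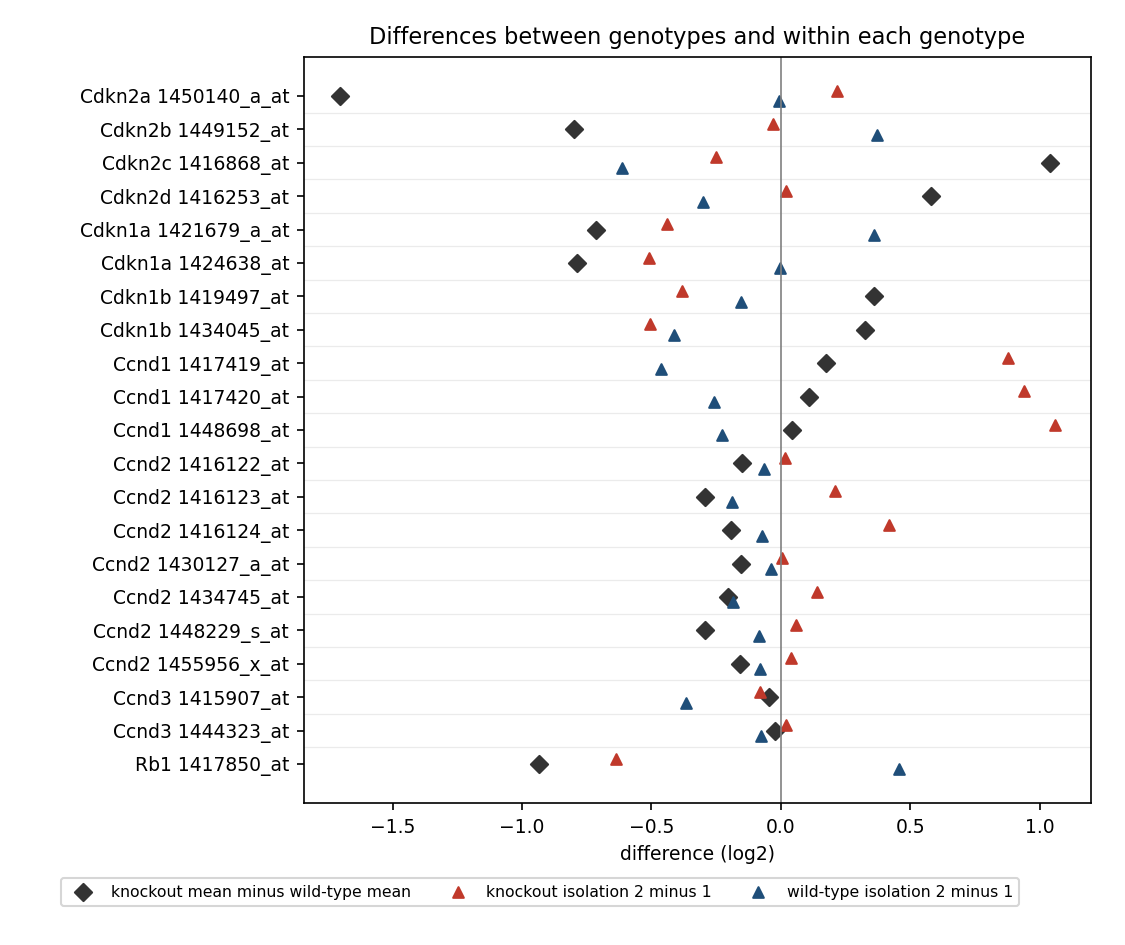
Log2 differences (horizontal axis) for each tested probe set: black diamonds are the knockout mean minus the wild-type mean, red triangles are knockout isolation 2 minus 1, and blue triangles are wild-type isolation 2 minus 1. For Cdkn2a the diamond at -1.70 lies far from both triangles, and for Ccnd1 the red triangles at 0.88 to 1.06 lie beyond the diamonds.

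The genes with 4-array profiles most like that of Cdkn2a, by the distance between profiles centred on their means, were Ackr3, a chemokine-scavenging receptor, Aldh3a1, an aldehyde dehydrogenase, Slc40a1, the iron exporter ferroportin, and Itgb3, an integrin subunit. Ackr3 was nearest, at a distance of 0.140, and read 7.61 and 7.75 in the knockout and 9.32 and 9.22 in the wild type. The other three were at distances of 0.205, 0.230 and 0.262 among 13270 genes. With 4 arrays a profile of this kind is mostly the genotype difference.

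Other genes of the pathway were described through lists, again with the brightest probe set per gene. Over all genes tested in this way, 0.0678% were called. Among 17 other cyclins, CDKs and inhibitors of the step from G1 to S phase, 0 were called by limma (2 had an unadjusted p under 0.05, against 11.5% of all genes tested), 10 stood higher without overlap (23.0% of all genes tested did) and 4 lower (22.0% of all did), and the median difference was 0.15. Ccna2, cyclin A2, which drives S phase with CDK2, read 8.86 and 9.73 in the knockout and 7.12 and 6.72 in the wild type (difference 2.37, limma adjusted p = 0.174). Ccne2, a cyclin E, read 5.66 and 8.55 against 5.27 and 4.74 (difference 2.10, limma adjusted p = 0.511). The knockout isolations of Ccne2 were far apart, and isolation 2 was the higher, as for Ccnd1. Skp2, the ubiquitin ligase subunit that marks p27 for breakdown, read 7.44 and 9.09 against 7.24 and 7.18 (difference 1.06). The kinases that D cyclins bind, named here after their values were seen, differed little. Cdk4 read 10.77 and 11.04 against 10.67 and 10.61, and Cdk6 read 8.87 and 9.56 against 9.34 and 9.44.

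In the list of pocket proteins, E2F factors and the DREAM repressor complex, 18 of 19 genes were tested and 0 were called (4 had an unadjusted p under 0.05, against 11.5% of all genes tested). Without overlap 8 stood higher, against 23.0% of all, and 1 lower, against 22.0%, and the median was 0.27. The repressor E2F genes E2f7 and E2f8, known E2F targets themselves, differed by 2.10 and 1.77 (limma adjusted p = 0.440 and 0.427), each with knockout isolation 2 highest. Rbl1, which encodes the Rb relative p107, read 6.96 and 7.95 in the knockout and 6.13 and 5.45 in the wild type (difference 1.67, limma adjusted p = 0.325), the reverse of Rb1. Rbl2, which encodes p130 and was named after its value was seen, read 7.49 and 7.55 against 7.94 and 7.58 (difference -0.24). The median was 0.047 at the lowest with 1 array left out and 0.45 at the highest.

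All 25 tested E2F target and proliferation genes stood higher without overlap, against 23.0% of all genes tested, and 0 were called (24 had an unadjusted p under 0.05, against 11.5% of all). This list repeats genes already known to be higher on these arrays and is given only for the levels beside the inhibitors. The median difference was 2.02. It was 1.42 at the lowest and 2.25 at the highest with 1 array left out, and 1.55 with the mean over a gene's probe sets. Cdc6, which loads the replicative helicase, differed by 2.77, the thymidine kinase Tk1 by 2.54 and the helicase subunit Mcm5 by 2.49 (limma adjusted p = 0.427, 0.176 and 0.299). Within the knockout, 20 of the 25 were higher in isolation 2, by a median of 0.88 over the list. The others, named after their values were seen, were lower there: Ccnb2 (-1.52), Cenpa (-1.32), Cdc20 (-0.43), Aurka (-0.30) and Plk1 (-0.23). Ccnd1 and most of the list, but not all of it, were thus higher, and Cdkn1a lower, in the same array.

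The p53 pathway list stood slightly lower, with 19 of 23 genes negative and a median of -0.25. Without overlap 11 were lower, against 22.0% of all genes tested, and 2 were higher, against 23.0%; 0 were called (4 had an unadjusted p under 0.05, against 11.5% of all). Perp, a p53 target that is also a desmosome protein of epithelia, read 5.29 and 3.04 in the knockout and 8.10 and 7.90 in the wild type (difference -3.84, limma adjusted p = 0.254). Beside it, keratinocyte markers had 4 of 10 genes above the filter and a summed log2 level of 41.5 and 43.2 in the knockout and 43.5 and 45.5 in the wild type, and Dsp, the desmosome protein desmoplakin, read 3.06 and 3.55 against 4.84 and 6.75 (difference -2.49, limma adjusted p = 0.352). Dsp, named after its value was seen, stood lower in the same arrays as Perp, while Krt10 did not; the part of keratinocytes in the Perp difference was not tested. Pmaip1, the cell death gene Noxa, differed by -1.59 and Mdm2, the ubiquitin ligase that p19Arf restrains and p53 induces, by -0.78 (limma adjusted p = 0.463 and 0.431). Mdm2 read 10.00 and 9.66 in the knockout and 10.27 and 10.94 in the wild type, with the same order of arrays as the Cdkn1a probe set 1421679_a_at.

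Polycomb genes and other regulators of the Cdkn2a and Cdkn2b locus showed no common direction. Of 26 tested genes 15 were positive and 11 negative, the median was 0.018, and 0 were called (2 had an unadjusted p under 0.05, against 11.5% of all genes tested). Without overlap 5 stood higher, against 23.0% of all, and 4 lower, against 22.0%. Ezh2, the methyltransferase of Polycomb repressive complex 2 and a known E2F target, read 7.78 and 8.78 in the knockout and 7.27 and 7.04 in the wild type (difference 1.12, limma adjusted p = 0.401). Kdm6a, an X-linked demethylase known to escape X inactivation, differed by 0.61 (limma adjusted p = 0.316), and Xist differed between the same arrays. Kdm6b, the related demethylase, differed by -0.50 and its genotypes overlapped. Bmi1, the classic repressor of Cdkn2a, read 9.18 and 9.16 against 9.46 and 9.33 (difference -0.22); it was named after its value was seen.

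Genes for D cyclin transcription, partners and turnover were balanced, with 9 of 23 positive, a median of -0.04 and 0 called (1 had an unadjusted p under 0.05, against 11.5% of all genes tested). Without overlap 5 stood higher, against 23.0% of all, and 5 lower, against 22.0%. Egr1, an immediate-early transcription factor, read 10.13 and 6.74 in the knockout and 9.62 and 9.26 in the wild type (means 8.44 and 9.44). Knockout isolation 2 alone was low, and that array was also the highest for Ccnd1. The AP-1 genes Fosl2 and Junb differed by -0.60 and -0.50, and Jun and Fosl1, named after their values were seen, by 0.42 and 0.38, so that AP-1 genes had no common direction. In the list of senescence-associated secreted and nuclear genes, 8 of 20 were positive, the median was -0.22 and 0 were called (6 had an unadjusted p under 0.05, against 11.5% of all genes tested). Without overlap 8 stood lower, against 22.0% of all, and 4 higher, against 23.0%. Hmgb2, a chromatin protein lost in senescent cells, differed by 1.74. Igfbp5, an insulin-like growth factor binding protein, differed by -1.68. The chemokine gene Ccl8 read 8.40 and 8.59 in the knockout and 11.09 and 8.79 in the wild type, high in the array with the leukocyte markers, whose part in that value was not tested.

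**Figure D5:**
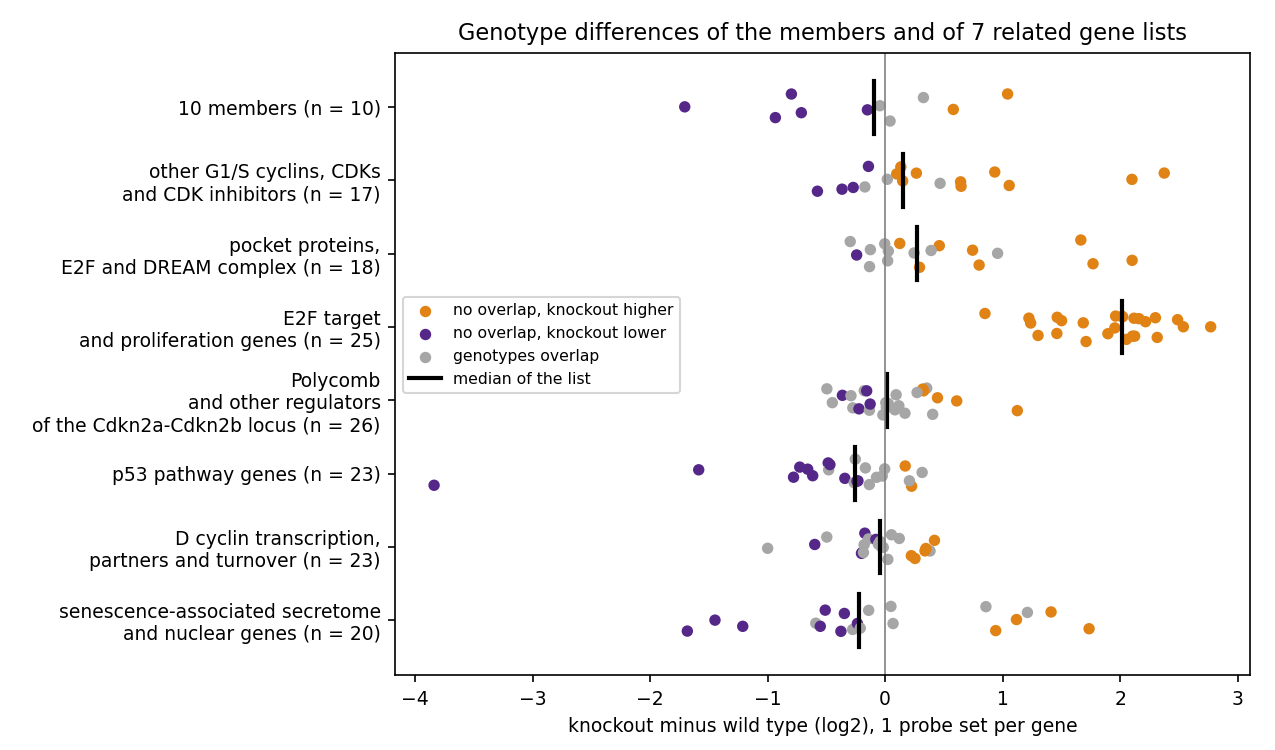
Knockout minus wild type on the log2 scale (horizontal axis) for the tested genes of the 10 members and of 7 related lists, 1 point per gene at its probe set with the highest mean; orange and purple points have no overlap between genotypes (knockout higher or lower), grey points overlap, and black bars are list medians. The members spread from -1.70 to 1.04 around a median of -0.10, while the E2F target list lies wholly above 0 with a median of 2.02.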

How the data were processed

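Total RNA of 2 knockout and 2 wild-type isolations of mouse dermal fibroblasts was measured on 1 array each. The values the authors deposited, 1 per probe set in each array, come from Affymetrix Expression Console per the submitters' processing notes. No version, summary algorithm or log base is stated there. A log2 scale was assumed for these deposited values from their range (1.70 to 14.4) and array medians (4.83 to 4.87); another base would change folds but not the order. No detection calls were used, so low values have no stated background, and precision is limited by having 4 arrays.

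Of 45101 probe sets, 64 were controls, 34958 named 1 gene and 932 several. Names were updated by Entrez identifier for 34754 through RefSeq's gene table (GRCm38.p6), which also gave gene order. limma 3.58.1 in R 4.3.3 (lmFit, eBayes, no block; 2 residual and 2.60 prior degrees of freedom) was fitted to all 23595 probe sets above the filter. Intervals are those of the moderated fit, unadjusted. An exact permutation test of 2 against 2 arrays cannot go below p = 0.333. The fit was tested on simulated data of 2 against 2 arrays with 500 planted changes of each size. It called 1.8% of log2 changes of 1, 50.8% of changes of 2, 74.8% of changes of 3 and 84.8% of changes of 4. A true difference near 1 would thus rarely be called, so the lack of a call does not show that a member was unchanged.

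Named were Adam9, every member probe set, the 3 genes with the largest difference in each list (none had a call), the brightest marker of each cell type and the 4 profiles nearest to the member with the largest difference; other names are said to have been chosen later. Members, lists and tests were chosen with earlier results of these data known. Alternatives tried were a block for the isolation number, other filters, normalizations, weights, moderation and probe set rules, and leaving out each array. Isolation numbers were not stated to be shared animals or days, so the block was not the main setting.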

Additional observations from a re-analysis of the deposited data

How the results depend on the processing

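No member probe set was called under any of the 15 alternatives run, by limma in each case, while 3 to 8 had an unadjusted p under 0.05 (3 without wild-type isolation 2). Of 293 alternative values of member probe sets, 284 kept their direction and 9 reversed, all of them with 1 array left out and all in D cyclins. Many of the 293 could not reverse. The block, the filters, the weights and the moderation left the differences themselves unchanged. Leaving out 1 array cannot reverse a probe set whose genotypes do not overlap. The count kept is therefore no measure of robustness. With 1 array left out, Ccnd1 ran from -0.26 to 0.62 (1417419_at), -0.36 to 0.58 (1417420_at) and -0.49 to 0.57 (1448698_at), Ccnd2 1416124_at from -0.40 to 0.015, and Ccnd3 from -0.23 to 0.14 (1415907_at) and -0.063 to 0.015 (1444323_at). The cause was not tested. Cdkn2a ran from -1.81 to -1.60 and Cdkn2b from -0.98 to -0.61.

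Over all probe sets, the 10 calls (3 higher, 7 lower) became 6 (4 lower) with the stricter filter, 6 (1 higher) with the mean over a gene's probe sets, and 7 (1 higher, 6 lower) without _x_at and _s_at probe sets; the cause was not tested, beyond that fewer features were tested in each. With any 1 array left out 0 were called (0 to 0 higher, 0 to 0 lower), from fewer samples (1232 to 3903 had an unadjusted p under 0.05; the lone array of a genotype was assumed to vary like the other genotype), and Adam9 ran from -3.31 to -3.08 (limma adjusted p 0.131 to 0.293). With the isolation number as a replicate block 0 were called, 0 higher and 0 lower (2605 had an unadjusted p under 0.05), and Adam9, at -3.20, had a limma adjusted p of 0.144. Same-numbered isolations shared little: the step from isolation 1 to 2 in the knockout correlated with that in the wild type at 0.083 over 23595 probe sets. No scaling moved the median of all probe sets by over 0.02.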
